A study of Mus musculus with 23 samples.

Results

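The mature miRNAs mmu-miR-210-3p and mmu-miR-210-5p, the arms of a single hairpin, were followed in the liver small RNA-seq of 23 male mice. They are 2 of 1218 mature miRNAs listed and 2 of 386 that passed a filter on low counts. They were chosen because miR-210 is the best known miRNA target of the hypoxia-inducible factors, and for the high level of miR-210 in 3 libraries of the HFoleic group, numbered 9, 10 and 11. A contrast that includes these 3 libraries is therefore a description without a test, whereas the libraries that the choice did not use were tested. Leaving these 3 libraries out lowers the miR-210-3p mean of HFoleic. The test of HFepa against the other HFoleic libraries thus cannot decide whether the lineages differ in miR-210-3p.

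All mice were C57bl/6J males of the F3 generation, and each gave 1 library. The reference group (STD_Cont, n = 8, libraries 1 to 8) came from the control lineage, whose growing diet was supplemented over the generations with high-oleic sunflower oil, and received a low-fat diet. The HFoleic group (HFD_Cont, n = 8, libraries 9 to 15 and 23) came from the same lineage and received a high-fat, high-sucrose diet for several weeks. The HFepa group (HFD_O3, n = 7, libraries 16 to 22) received that diet too, but its lineage was supplemented with fish oil rich in eicosapentaenoic acid (EPA). The age of the mice is not given in the sources used here. The animals were killed in fasting, and no omega 3 lineage on the low-fat diet was analysed here, so lineage was compared only under the high-fat diet. Every library held 1 mouse, and the libraries were numbered almost in the order of the groups, so library number and group cannot be told apart in HFepa vs. reference.

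A hypoxic cell stabilizes the alpha subunits of the hypoxia-inducible factors (HIF), which oxygen-dependent prolyl hydroxylases otherwise mark for degradation. Stabilized HIF binds hypoxia response elements and raises the transcription of its target genes, and Mir210 is one that responds in nearly every cell type studied. The 3p arm is the main product of the hairpin and represses, among others, the iron-sulfur cluster scaffold protein Iscu, and thereby mitochondrial respiration. In the liver, oxygen falls from the periportal to the pericentral end of the lobule, and steatosis and a high-fat diet have been linked to lower liver oxygen.

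The sequences of both arms are given because they set what the libraries counted: each arm has a seed of its own, so the arms are not predicted to bind the same sites. Capitals mark the seed (bases 2 to 8) of each mature miRNA, printed 5′ to 3′ from RefSeq on GRCm38.p6.
mmu-miR-210-3p: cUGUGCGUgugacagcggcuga
mmu-miR-210-5p: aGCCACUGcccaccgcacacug
The 3p arm lies at chr7:141221407-141221428 and the 5p arm at chr7:141221445-141221466, both on the minus strand. Their seeds, UGUGCGU and GCCACUG, were shared by 0 other mature miRNAs of 1679 in the table. In the hairpin of 110 bases (chr7:141221384-141221493, minus strand), capitals mark the 5p arm at bases 28 to 49 and the 3p arm at bases 66 to 87.
Mir210: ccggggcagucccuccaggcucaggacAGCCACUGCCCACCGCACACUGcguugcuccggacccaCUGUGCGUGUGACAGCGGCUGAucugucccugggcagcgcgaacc
Both arms are rich in G and C. Of the 22 bases of the 3p arm 63.6% were G or C, more than in 91.0% of the 333 tested miRNAs with a sequence, and in the 5p arm 68.2%, more than in 96.7%; the median was 47.6%. In the GENCODE M21 annotation 0 other genes overlapped Mir210, and its neighbours were Rassf7, 2726 bases away, and Phrf1, 7291 bases away, both on the plus strand.

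The libraries held between 3725432 and 8139344 counts of mature miRNAs. Totals were 5242218 to 8139344 in reference mice, 4340903 to 7220112 in HFoleic mice and 3725432 to 4947990 in HFepa mice. These ranges overlap between HFepa and HFoleic, but every HFepa total lay below every reference total. Depth and group thus cannot be told apart in HFepa vs. reference. Levels are given as CPM, the counts scaled to a common library total, with TMM normalization. Hepatocyte miRNAs were abundant in every library, with a mean of 18681 CPM for miR-122-5p, the defining hepatocyte miRNA. The libraries were not equal in the miRNAs of other cells. Reference library 3 had the highest summed levels of the biliary, leukocyte and stellate cell markers of all 23 libraries. The summed pancreas markers, whose reads were almost all of miR-375-3p, peaked at 2021 CPM in reference library 5. In the other groups that sum stayed at or below 34.1 CPM. In bulk liver, fewer cells of a type and less RNA per cell cannot be told apart.

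miR-210-3p was a miRNA of middle abundance. It took 4637 reads over the 23 libraries, 0.00372% of all counts, and stood at rank 188 of the 386 miRNAs tested by its mean of 37.0 CPM. miR-210-5p, the minor arm, took 301 reads and stood at rank 352 with a mean of 2.40 CPM. Since both arms are 22 bases long, their levels can be set side by side without a correction for length, although the adapter ligation of small RNA-seq can favour one sequence over another.

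In the reference group, the level of miR-210-3p had a lowest value of 26.2, a median of 31.5 and a highest value of 45.3 CPM over 8 libraries, with 172 to 270 reads. The highest value belonged to reference library 5 and the next highest, in library 2, was 35.6 CPM, so 7 of the 8 lay between 26.2 and 35.6 CPM. The mean was 32.5 ± 6.05 CPM (SD, n = 8).

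In the HFoleic group the libraries fell apart by number. Library 10 had the highest miR-210-3p level of the series, 63.8 CPM from 441 reads. Library 9 had 51.4 CPM from 294 reads, and library 11 had 48.9 CPM from 313 reads. All 3 lay above every other library, which is what chose them. Library 12 had 40.8 CPM, library 13 had 30.9 CPM, library 14 had 41.0 CPM, library 15 had 26.1 CPM and library 23 had 35.8 CPM. Of these 5 libraries of the same group 4 lay within the range of the reference group and library 15 just below it, with 110 to 221 reads each. The mean of the whole group was 42.3 ± 12.1 CPM (SD, n = 8), that of libraries 9 to 11 was 54.7 ± 8.0 CPM (n = 3), and that of the other 5 was 34.9 ± 6.47 CPM (n = 5).

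In the HFepa group, the miR-210-3p level had a lowest value of 28.1, a median of 38.7 and a highest value of 40.9 CPM over 7 libraries, with 107 to 192 reads. Libraries 16, 19, 21 and 22 lay between 38.7 and 40.9 CPM and libraries 17, 18 and 20 between 28.1 and 32.9 CPM, all within the range of the reference group. The mean was 36.0 ± 5.31 CPM (SD, n = 7). By mean level the order was HFoleic, HFepa and reference, and each neighbouring pair of means lay closer together than the SD of HFoleic.

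**Figure D1:**
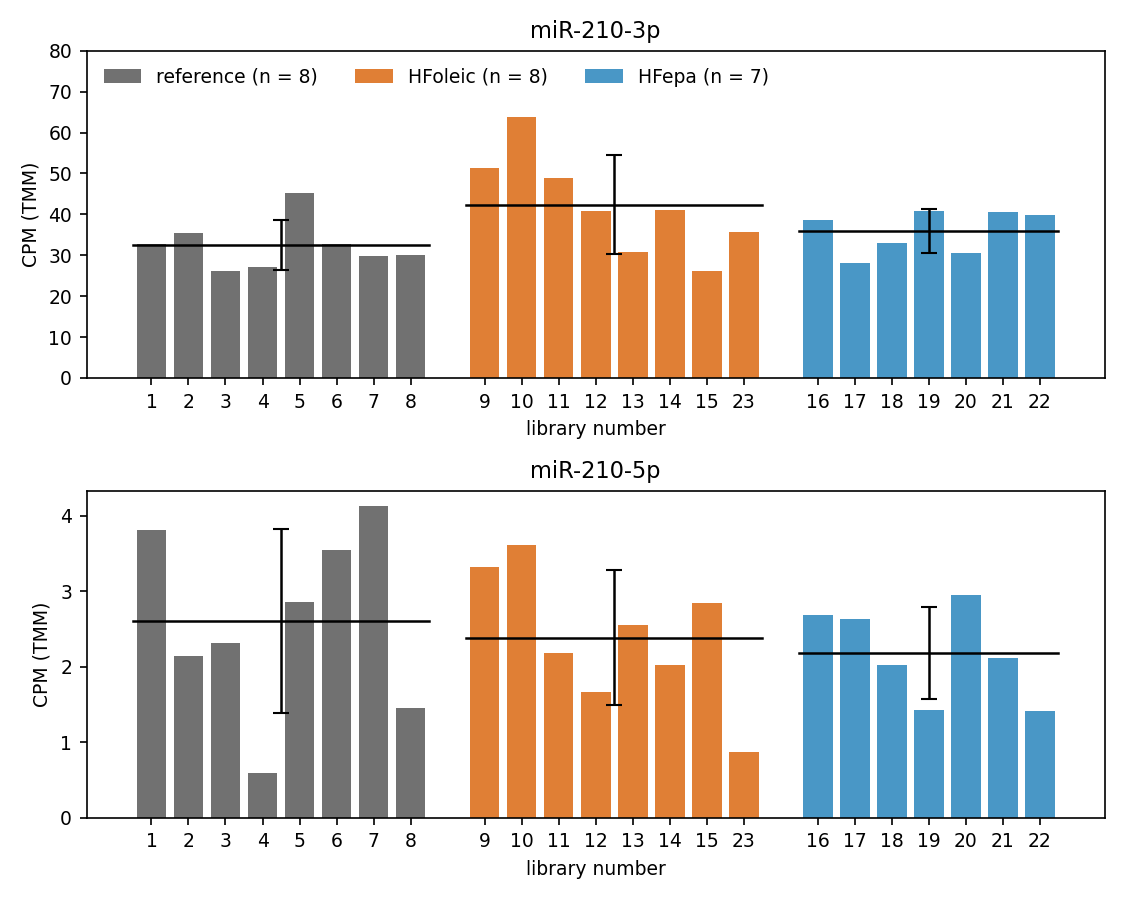
Levels of miR-210-3p (top) and miR-210-5p (bottom) in CPM with TMM normalization for each library, on axes that start at 0. Each bar is 1 mouse, the horizontal lines are the group means and the error bars 1 SD; for miR-210-3p libraries 9 to 11 of HFoleic stand at 48.9 to 63.8 CPM and all other libraries at or below 45.3 CPM, whereas for miR-210-5p the groups overlap.

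The coefficient of variation of miR-210-3p between mice was 18.6% for reference mice and 14.8% for HFepa mice. It was 28.7% for all HFoleic mice, which includes the libraries that chose the miRNA, and 18.5% for libraries 12 to 15 and 23 of that group. Read numbers of this size would by themselves give 6.97% for reference mice, 8.06% for HFepa mice and 7.60% for these 5 HFoleic libraries.

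For miR-210-5p the level in the reference group had a lowest value of 0.599, a median of 2.59 and a highest value of 4.13 CPM, with 5 to 25 reads a library. In HFoleic the lowest value was 0.873, the median 2.37 and the highest value 3.62 CPM, with 4 to 25 reads. In HFepa they were 1.42, 2.12 and 2.95 CPM, with 6 to 13 reads. The 3 groups overlapped almost completely, and the HFepa values lay inside the range of the reference group. The mean was 2.61 ± 1.22 CPM for reference mice (n = 8), 2.39 ± 0.895 CPM for HFoleic mice (n = 8) and 2.18 ± 0.608 CPM for HFepa mice (n = 7). The reference group thus had the highest mean of the 5p arm and the lowest of the 3p arm. In each arm the next mean lay less than the SD of the reference group away. The coefficient of variation of the 5p arm was 46.7% for reference mice, 37.5% for HFoleic mice and 27.9% for HFepa mice, beside 24.9%, 27.3% and 32.8% from counting error. In HFepa alone it was below counting error, so differences between those mice were not detectable at this depth.

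HFoleic libraries 9, 10 and 11 did not stand apart for the 5p arm as they did for the 3p arm. They had 3.32, 3.62 and 2.19 CPM of miR-210-5p, from 19, 25 and 14 reads, all within the reference range. For comparison, libraries 9 to 11 lay above all 8 reference libraries for 8 of the 386 miRNAs tested (2.07%), with miR-210-3p among them and miR-210-5p not, and below all 8 for 5. They lay above all 20 other libraries for 2 miRNAs (0.518%), miR-210-3p and miR-221-3p. Because miR-210 was chosen on these libraries, these shares describe how many other miRNAs had the same pattern and carry no test.

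In HFoleic vs. reference, the log2 fold change of miR-210-3p was 0.39 (SE 0.15) with all 8 HFoleic libraries and 0.11 (SE 0.14) without libraries 9 to 11. That of miR-210-5p was -0.10 (SE 0.30) with them and -0.37 (SE 0.36) without. The SEs of these contrasts come from the fitted model and do not allow for the choice of miR-210 on libraries 9 to 11. In HFepa vs. HFoleic, miR-210-3p had a log2 fold change of -0.24 (SE 0.16) with all HFoleic libraries and 0.04 without libraries 9 to 11. For miR-210-5p it was -0.14 (SE 0.33) and 0.13. Leaving out libraries chosen for a high level was bound to lower the HFoleic mean of the 3p arm. The smaller 3p differences without these 3 libraries therefore follow from the choice and are no separate result. In HFepa vs. HFoleic both arms changed sign without them.

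The first question that could be tested was whether miR-210 differed between the supplemented lineage on the high-fat diet and the reference mice. In HFepa vs. reference 42 of the 386 miRNAs passed the test (10.9%), 22 higher and 20 lower, by edgeR's quasi-likelihood test, where a call needed an adjusted p below 0.05 and a log2 fold change beyond 0.25 in either direction. Neither arm of miR-210 was among them. The log2 fold change of miR-210-3p was 0.15 (SE 0.13, 95% interval -0.12 to 0.42) with an adjusted p of 0.492 by edgeR. The 7 HFepa libraries all lay within the range of the 8 reference libraries. Reference library 5 had the highest miR-210-3p level of its group and the highest pancreas sum. Without it, the log2 fold change of miR-210-3p was 0.23 with an adjusted p of 0.256 by edgeR. Without reference library 3 the fold change was 0.11 with an adjusted p of 0.644 by edgeR. For miR-210-5p the log2 fold change was -0.24 (SE 0.33, 95% interval -0.95 to 0.46) with an adjusted p of 0.706 by edgeR. An exact two-sided permutation test with 6435 arrangements of the libraries gave p = 0.230 for a difference in mean log2 CPM of 0.15 in the 3p arm, and p = 0.709 for -0.12 in the 5p arm. After adjustment over the 6 permutation tests made, all 6 had an adjusted p of 0.741. The interval of the 3p arm does not include a rise above 0.42 on the log2 scale, while the few reads of the 5p arm left changes of almost 1 on the log2 scale, in the lower direction, within its interval.

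The second question was how HFepa libraries 16 to 22 compared with HFoleic libraries 12 to 15 and 23 under the high-fat diet. None of these libraries had chosen miR-210. The HFoleic libraries left out had the highest miR-210-3p levels of the series, while all HFepa libraries stayed in. Leaving them out lowered the HFoleic mean of the 3p arm from 42.3 to 34.9 CPM. The test therefore cannot decide whether the lineages differ in miR-210-3p, and compares only the libraries that remained. In this comparison 0 of 386 miRNAs passed the test (0%) by edgeR, 0 by DESeq2, and 22 had an unadjusted p under 0.05. The log2 fold change of miR-210-3p was 0.04 (SE 0.14, 95% interval -0.26 to 0.34) with an adjusted p of 0.977 by edgeR. The mean levels were 36.0 ± 5.31 CPM in 7 HFepa and 34.9 ± 6.47 CPM in 5 HFoleic libraries, and the ranges of the groups, 28.1 to 40.9 and 26.1 to 41.0 CPM, overlapped almost fully. For miR-210-5p the log2 fold change was 0.13 (SE 0.29, 95% interval -0.50 to 0.76) with an adjusted p of 0.939 by edgeR. The exact two-sided permutation test with 792 arrangements gave p = 0.727 for the 3p arm and p = 0.604 for the 5p arm. The sign rested on single libraries, as miR-210-3p stood at -0.044 without HFoleic library 15 and miR-210-5p at -0.049 without HFoleic library 23. Changes of either arm inside these intervals were not detectable with these libraries.

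The share of the 5p arm among the reads of both arms does not depend on normalization. Pooled over all libraries it was 6.10%, and by library it ran from 2.16% to 12.2%, with both extremes in the reference group. Reference library 4 had 5 reads of the 5p arm among 231, 2.16% with an exact Clopper-Pearson 95% interval of 0.706 to 4.98%. Reference library 7 had 25 among 205, 12.2% with an interval of 8.05 to 17.5%, so these 2 mice of the same group did not overlap in counting error. The intervals cover counting error only, since the reads carried no molecular identifiers.

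By group, the share of the 5p arm was 7.36 ± 3.35% for reference mice (SD, n = 8), 5.53 ± 2.33% for HFoleic mice (n = 8) and 5.91 ± 2.20% for HFepa mice (n = 7). In the 3 libraries with the highest 3p level it was 6.07% in library 9, 5.36% in library 10 and 4.28% in library 11, within the range of the other mice. The log2 ratio of 5p to 3p reads was 0.24 lower in HFepa than in the reference group, with an exact permutation p of 0.530. In HFepa vs. the HFoleic libraries 12 to 15 and 23 it differed by 0.13, with an exact permutation p of 0.741. Neither difference passed the test, and 0.13 turned to -0.13 without HFoleic library 23.

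**Figure D2:**
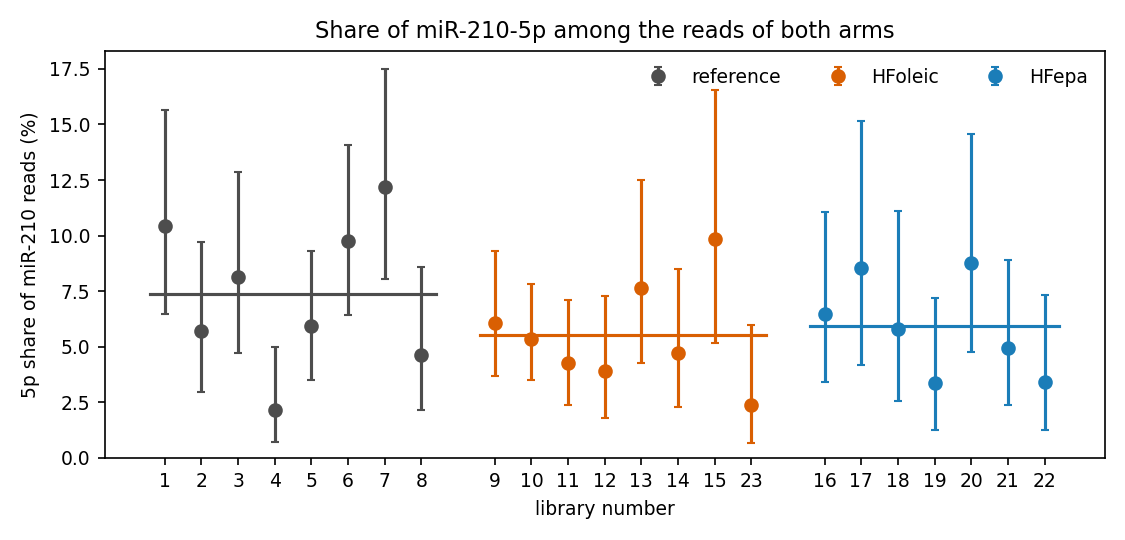
Share of miR-210-5p among the reads of both miR-210 arms, in percent, for each library, with exact 95% intervals as bars and the group means as horizontal lines. The shares run from 2.16% to 12.2%, both in the reference group, and the groups overlap.

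miR-210 is not the only miRNA tied to hypoxia. A list of 20 miRNAs that have been found raised in hypoxic cells, among them the miR-23/24/27 clusters, miR-26, miR-103/107 and miR-181, was set beside it. Of these 19 were in the table and all 19 were tested. In HFepa vs. reference 1 passed the test, which was higher, or 5.26% beside 10.9% of all miRNAs. The median log2 fold change of the list was -0.02 beside -0.06 over all miRNAs, with 9 of 19 above 0 and a range of -0.45 to 1.03.

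The miRNA that rose was miR-125b-5p, which is known to repress the proapoptotic genes Bak1 and Bmf. Its level was 592 ± 73.6 CPM in the reference group (n = 8) and 1209 ± 355 CPM in HFepa (n = 7), a log2 fold change of 1.03 with an adjusted p of 0.000629 by edgeR. It did not share the pattern of miR-210-3p. In HFoleic libraries 9 to 11, where miR-210-3p was highest, miR-125b-5p lay at 532 to 581 CPM, within the reference range of 510 to 722 CPM, whereas in the other 5 HFoleic libraries it lay at 937 to 1733 CPM. The HFepa libraries ran from 590 to 1603 CPM, and inside HFoleic the level moved with the library number. The part of the library number in the difference from the reference group was not tested.

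The other members of the list with the most reads stayed below the threshold. miR-192-5p, abundant in hepatocytes and kidney, had a log2 fold change of 0.12 with an adjusted p of 0.624 by edgeR. miR-21a-5p, which represses Pdcd4, had -0.14 with an adjusted p of 0.415 by edgeR. miR-26a-5p, which represses Ezh2, had 0.22 with an adjusted p of 0.0484 by edgeR, under the fold threshold. In HFoleic libraries 9 to 11, 0 of the 19 lay together above the reference range, beside 2.07% of all miRNAs, and 0 below it, beside 5 of 386. Between HFepa and HFoleic libraries 12 to 15 and 23, 0 of 19 passed the test, and the median log2 fold change was -0.02 beside -0.01 over all miRNAs.

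A list of 9 miRNAs that act on HIF itself or on its hydroxylases was set out for the other end of the pathway. All 9 were in the table, and 7 were tested, as miR-20b-5p and miR-138-5p had too few reads. In HFepa vs. reference 0 of 7 passed the test, beside 10.9% of all miRNAs, a share that would be less than 1 of 7, with a median log2 fold change of -0.06, the same to 2 decimals as over all miRNAs. The values ran from -1.22 for miR-429-3p, with an adjusted p of 0.0771 by edgeR, to 0.11. miR-31-5p, which represses the HIF-inhibiting hydroxylase FIH, had -0.18 with an adjusted p of 0.369 by edgeR, and miR-199a-5p, which represses Hif1a, had 0.00 with an adjusted p of 0.998 by edgeR. miR-20a-5p of the miR-17-92 cluster, which also targets Hif1a, had -0.01 with an adjusted p of 0.973 by edgeR. miR-429-3p is also a biliary marker, and its reference values ran from 35.3 to 276.9 CPM, with the highest in library 3, where the biliary markers were highest too. Between HFepa and HFoleic libraries 12 to 15 and 23, 0 of 7 passed the test.

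**Figure D3:**
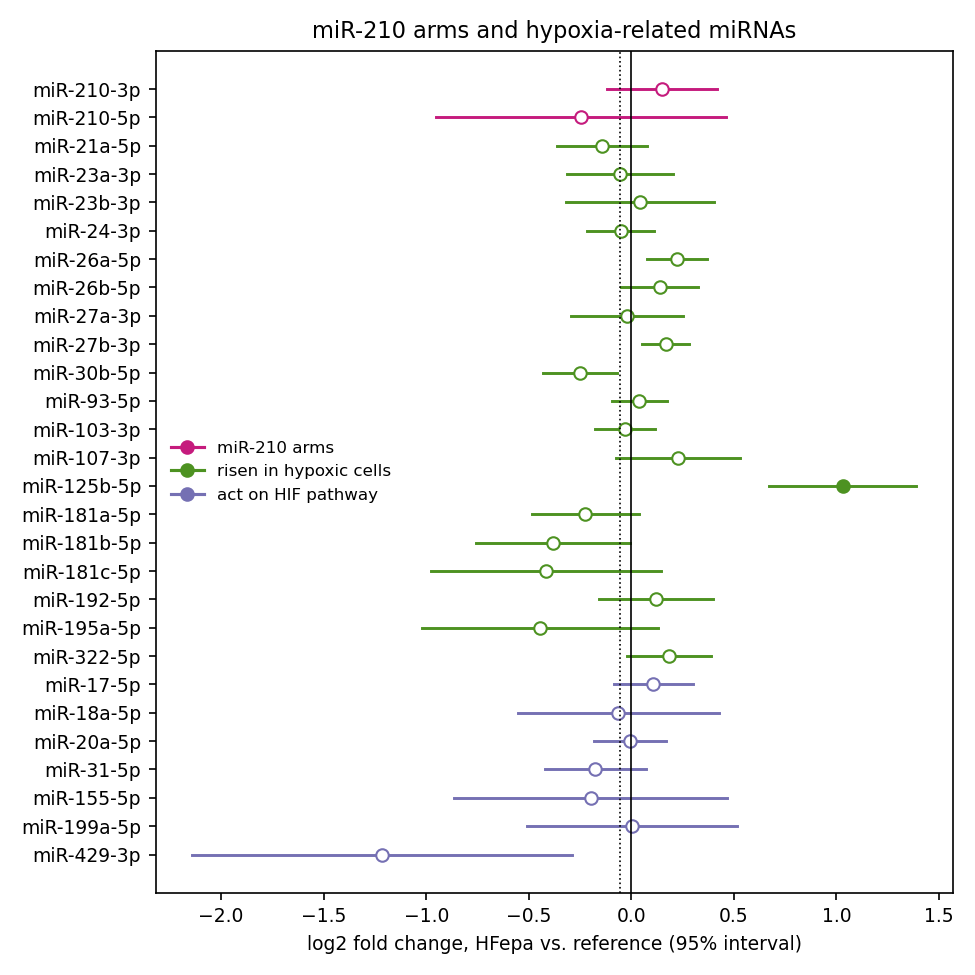
Log2 fold changes in HFepa vs. reference with 95% intervals for the miR-210 arms, the 19 miRNAs raised in hypoxic cells and the 7 that act on the HIF pathway. Filled points passed the test, open points did not, and the dotted line is the median of all 386 miRNAs, -0.06; miR-125b-5p at 1.03 is the filled point, and the intervals of both miR-210 arms include 0.

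The miRNAs whose level followed miR-210-3p most closely were sought over the 23 libraries among 258 others with a mean of at least 10 CPM. These correlations are descriptions across libraries that share depth, library number and group, and include libraries 9 to 11. Spearman's rho over the 258 had a median of -0.04 and ran from -0.72 to 0.47. The highest were miR-30a-5p with a rho of 0.47, miR-221-3p with 0.47, miR-30f with 0.42, miR-101c with 0.41 and miR-320-3p with 0.40. When each group was centred on its own mean, the highest were miR-28a-3p with 0.63, miR-222-3p with 0.62, miR-532-5p with 0.57, miR-150-5p with 0.57 and miR-92a-3p with 0.54. Uncentred, these miRNAs had a rho of 0.39, 0.19, 0.28, -0.04 and 0.09 over the 23 libraries. Without libraries 9 to 11 the uncentred values were 0.15, -0.18, 0.11, -0.21 and -0.09. A centred rho without those libraries was not computed. The other arm, miR-210-5p, had a mean of 2.40 CPM and so was below the limit for this ranking. Its rho with miR-210-3p was -0.02, from only 4 to 25 reads a library.

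miR-221-3p, which represses Cdkn1b and is transcribed together with miR-222, was the one other miRNA with libraries 9 to 11 on top. Its levels there were 427.7, 446.8 and 455 CPM. In HFoleic library 14 it was at 425.8 CPM, close below, while the reference libraries ran from 329 to 420 CPM and HFepa from 317 to 419 CPM. Without libraries 9 to 11, its rho with miR-210-3p was 0.19.

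The lowest rho values were those of miR-182-5p with -0.72, miR-215-5p with -0.69 and miR-183-5p with -0.62. miR-182 and miR-183 stem from 1 cluster. miR-182-5p lay at 543 to 1577 CPM in HFoleic libraries 9 to 11, at 1026 to 2005 CPM in the other HFoleic libraries, at 1243 to 3151 CPM in the reference group and at 759 to 2481 CPM in HFepa. Without libraries 9 to 11 its rho with miR-210-3p was -0.65.

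**Figure D4:**
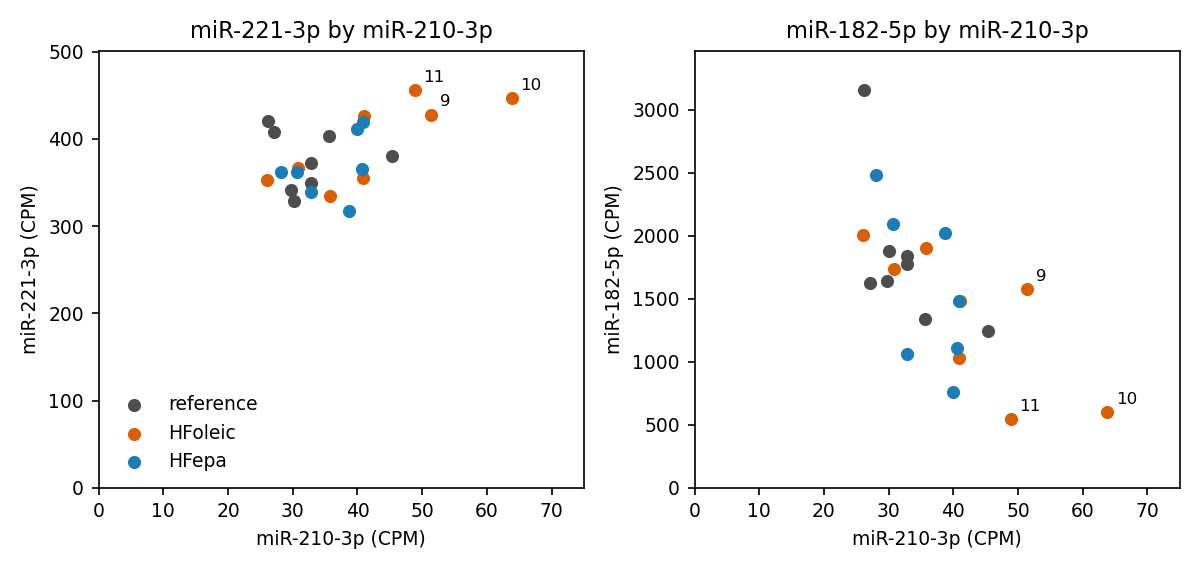
Levels of miR-221-3p (left) and miR-182-5p (right) against that of miR-210-3p, all in CPM with TMM normalization and with 1 point per library, coloured by group; HFoleic libraries 9, 10 and 11 carry their numbers. Both miRNAs were picked for a high or low rho, 0.47 and -0.72 over the 23 libraries, and the 3 numbered libraries stand on top for miR-221-3p.

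Markers of the cell types that liver tissue could hold were compared between libraries 9 to 11 and the reference group, since these libraries carried the high miR-210-3p. Of the 32 miRNAs in 8 lists, 0 lay in all 3 libraries above the reference range and 0 below it, beside 8 and 5 of the 386 miRNAs tested. Not all 32 were among the 386, as 1 of 3 pancreas and 1 of 3 muscle and heart markers passed the filter. Some reference ranges were wide, so a level above them was hard to reach. The reference sums reached 2021 CPM for pancreas, 215 for muscle and heart and 1094 for biliary markers, beside medians of 17.2, 5.97 and 191 CPM. Summed hepatocyte markers were 318895 to 357694 CPM in libraries 9 to 11 and 187956 to 338789 CPM in the reference group. Those of endothelium, miR-126a, were 18215 to 18366 and 13887 to 20330 CPM, and those of red blood cells 4021 to 5466 and 3571 to 8772 CPM. Leukocyte markers summed to 1299 to 2000 CPM in libraries 9 to 11 and 1332 to 2923 CPM in the reference group, and stellate cell and fibroblast markers to 19870 to 28558 and 23453 to 42509 CPM.

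The remaining lists were of lower level. Biliary markers summed to 157 to 333 CPM in libraries 9 to 11 and 151 to 1094 CPM in the reference group, pancreas markers to 18.1 to 34.1 and 13.0 to 2021 CPM, and muscle and heart markers to 1.45 to 7.35 and 1.85 to 215 CPM. Of the defining markers, miR-206-3p of muscle had 0 reads in 19 libraries, miR-216a-5p and miR-217-5p of pancreas in 16 and 11, and miR-1a-3p of heart and muscle in 4. Against the other 5 HFoleic libraries, the sums of 2 lists lay apart. The pancreas sum was higher in libraries 9 to 11, at 18.1 to 34.1 CPM beside 9.24 to 16.1 CPM. It was almost all miR-375-3p, which had 14442 reads over all libraries, beside 13 for miR-216a-5p and 21 for miR-217-5p. The endothelium sum was lower, at 18215 to 18366 CPM beside 19733 to 26007 CPM. Neither pair of ranges overlapped. The ranges of the other 6 lists overlapped. Such a separation was not particular to these lists. miR-222-3p, in none of them, lay at 134 to 195 CPM in libraries 9 to 11 and at 84.7 to 104 CPM in the other HFoleic libraries. For miR-92a-3p the ranges were 6578 to 7205 and 4335 to 5708 CPM, whereas those of miR-30f, 53.8 to 58.8 and 38.9 to 78.0 CPM, overlapped. The share of all miRNAs that lay apart in this split was not computed. The part of the listed cell types in the level of miR-210-3p was not tested. The totals of libraries 9 to 11, 5582691 to 7220112 counts, lay within the range of the reference group.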

How the data were processed

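Liver small RNA of 23 mice was sequenced and assigned to groups by the labels. The authors trimmed adapters with the FASTX-Toolkit, aligned reads with Bowtie in ncPRO-seq and deposited raw counts per mature miRNA of miRBase. The genome is named both as GRCm38.p6 and as mm9 in the methods and as mm10 in the processing notes, which also name bcl2fastq 2.17.1.14. The deposited counts carry no coordinates, so those given here are of RefSeq on GRCm38.p6, where 1045 of 1218 listed miRNAs had a sequence. Normalized columns, group means and the authors' fold changes and p-values were not used.

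Members and lists were chosen with earlier results of these data known. edgeR 4.0.16 in R 4.3.3 gave the filter (filterByExpr) and TMM factors from all 23 libraries and the quasi-likelihood test, fitted on the libraries of each comparison, with Benjamini-Hochberg adjustment over 386 miRNAs. A call needed an adjusted p below 0.05 and a log2 fold change beyond 0.25 in either direction. Permutation tests used log2 CPM (prior count 2), and the arm ratio a pseudocount of 0.5. Named were both arms, members of the lists that passed a test or had the most reads, and the miRNAs of highest or lowest rho. miR-429-3p, miR-30b-5p and miR-322-5p, and the reference libraries singled out, were chosen after their values were seen. Alternatives were other normalizations and filters, DESeq2 1.42.0, limma 3.58.1 (voom, and quantile normalization as in the methods), a fit of all groups, and each library left out; those of the arm ratio were added after seeing the data. The tests were tested on simulated data. DEGseq was not run. Totals of 3725432 to 8139344 counts give few reads for miR-210-5p, so counting error limits it. The sources do not say whether mice shared a litter. Python 3.11.15, pandas 2.3.3, SciPy 1.17.1 and matplotlib 3.10.9 were used.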

Additional observations from a re-analysis of the deposited data

How the results depend on the processing

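Neither arm of miR-210 was called in HFepa vs. reference, or in HFepa vs. HFoleic without libraries 9 to 11, under any alternative run. In HFepa vs. reference the log2 fold change of miR-210-3p stayed above 0, at 0.11 to 0.23 with single libraries left out, and was 0.32 with quantile normalization and limma (adjusted p 0.179); that of miR-210-5p was -0.41 (without reference library 4) to -0.09 (without reference library 7), -0.079 with limma-voom and -0.071 with quantile normalization. Called miRNAs there numbered 31 to 43 with single libraries left out, 42 with all, and from 28 without a filter to 61 in the fit of all groups under the other settings. In HFepa vs. HFoleic, libraries 12 to 23, the sign depended on single libraries: miR-210-3p ran from -0.044 (without HFoleic library 15) to 0.11, miR-210-5p from -0.049 (without HFoleic library 23) to 0.27, and the log2 arm ratio from -0.13 (without HFoleic library 23) to 0.38. The fit of all 23 libraries, which brings back libraries 9 to 11, gave -0.24 and -0.14 for the arms, with no test. The arm ratio in HFepa vs. reference was -0.47 to -0.10 with single libraries left out.

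Of the miRNAs raised in hypoxia, 2 were called in place of 1 by library size in place of TMM, limma-voom, at least 10 counts in every library and the fit of all groups, miR-30b-5p beside miR-125b-5p. In these settings, in the same order, 45, 48, 39 and 61 of all miRNAs were called, beside 42 in the main run. The step from 1 to 2 rests on miR-30b-5p alone and is no separate result about the list. With single libraries left out, 1 to 2 of the list were called, beside 31 to 43 of all miRNAs. miR-125b-5p was called each time. Beside it were miR-26a-5p without reference library 1, 2 or 7 or HFepa library 19, miR-30b-5p without reference library 3 or HFepa library 20, and miR-322-5p without reference library 5. In the main run miR-26a-5p and miR-322-5p were higher in HFepa, with log2 fold changes of 0.22 and 0.18. At least 10 counts in every library left no value for miR-210-5p. The median log2 fold change of all miRNAs in HFepa vs. reference was -0.06 with TMM, -0.12 by library size and -0.02 with upper-quartile factors. The mice of the HFoleic and HFepa groups had been matched for body weight, but the labels give no pairs of mice. No paired analysis was therefore possible.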
